A study of Homo sapiens with 30 samples.

Results

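MHC class II molecules present peptides to CD4+ T cells, and B cells carry them constitutively. HLA-DRA, HLA-DRB1, HLA-DPA1, HLA-DPB1, HLA-DQA1 and HLA-DQB1 encode the alpha and beta chains of the presenting molecules. CD74, the invariant chain, fills the peptide groove of new molecules and guides them to endosomes, and HLA-DM, the dimer of HLA-DMA and HLA-DMB, exchanges its remnant for peptide. CIITA is the coactivator that drives the promoters of these genes. It does not bind DNA itself but docks on the enhanceosome of the RFX, CREB and NF-Y factors, which sits on the X, X2 and Y boxes upstream of each start. CIITA is transcribed from several alternative promoters, of which promoter III is the one known from B cells.

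The 10 genes were taken at their RefSeq positions on GRCh38, and all consensus peaks inside a gene or within 5 kb of it were counted as its peaks. This assignment of peaks made no use of measured values, but the genes were chosen with earlier results of these data known. Among 21268 H3K4me3 peaks 10 were theirs, and among 63580 H3K27ac peaks 26. H3K4me3 marks active and poised promoters, and H3K27ac marks active promoters and enhancers. Both marks were measured by chromatin immunoprecipitation and sequencing in OCI-Ly1, an established human line of diffuse large B cell lymphoma of germinal centre type. Cells were given the DMSO vehicle or JIB-04, which inhibits histone demethylases of the Jumonji family, in doses of 150 nM and 500 nM, and each treatment had 2 libraries per mark, 12 in all. The length of treatment is not given in the sources used here. The labels name 1 cell line and number the replicates, but do not say that they came from separate cultures, so p-values measure the spread between these libraries, which may be technical.

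Reads in peaks numbered 9686420 to 12327122 per H3K4me3 library and 4360660 to 5410292 per H3K27ac library. The median peak held 263 to 328 reads for H3K4me3 but 21 to 24 for H3K27ac, so that single H3K27ac peaks carried more counting error. All 6 B cell marker genes checked and all 4 germinal centre markers had a peak of both marks within 1 kb. Of the 4 T cell markers 2 had an H3K4me3 peak and 3 an H3K27ac peak, among them CD3D and CD8A, and of the 4 myeloid markers 1, CD14, had an H3K4me3 peak. All 3 epithelial markers had one too, and 1 of them an H3K27ac peak, while no myeloid marker had an H3K27ac peak. Levels are given as CPM, which are counts scaled by the TMM-adjusted total of the tested peaks, and so miss any change shared by all peaks of a mark. Tests are edgeR quasi-likelihood tests with p-values adjusted over all tested peaks of the mark, and a peak is said to rise or fall where the adjusted p is under 0.05.

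Reference promoters are printed for genes that set the contrast in the results, the HLA-DM pair with peaks at their starts and 2 chain genes without. Each sequence is the 150 bases before the annotated start, 5′ to 3′ on the gene's own strand, from RefSeq on GRCh38. They are reference letters, and the alleles that OCI-Ly1 carries were not analysed here. Capitals mark an X core followed by a Y core or, in HLA-DMB, which had no such pair, the reverse complement of a Y core. Other matches to these letters stay in lower case.
HLA-DMA, chr6:32953098-32953247, minus strand: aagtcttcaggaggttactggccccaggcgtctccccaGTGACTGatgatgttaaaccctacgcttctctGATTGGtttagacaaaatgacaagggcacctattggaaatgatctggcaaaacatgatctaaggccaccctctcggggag
HLA-DMB, chr6:32941029-32941178, minus strand: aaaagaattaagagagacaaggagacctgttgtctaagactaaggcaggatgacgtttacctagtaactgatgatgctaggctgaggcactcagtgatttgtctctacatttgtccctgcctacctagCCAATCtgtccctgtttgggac
HLA-DRB1, chr6:32589849-32589998, minus strand: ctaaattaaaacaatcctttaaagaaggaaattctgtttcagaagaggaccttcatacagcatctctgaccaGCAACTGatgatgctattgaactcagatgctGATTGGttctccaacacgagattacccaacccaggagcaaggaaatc
HLA-DQB1, chr6:32666658-32666807, minus strand: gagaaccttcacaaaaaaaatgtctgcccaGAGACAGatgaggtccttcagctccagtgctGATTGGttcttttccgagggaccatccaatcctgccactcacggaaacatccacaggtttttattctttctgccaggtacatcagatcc

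The Y core was searched as GATTGG, the X core as GNNACNG and the X2 site as TGACG, on both strands of windows of 250 bases before to 50 after each start. Promoter windows were at hand for 8 of the 10 genes, 9 windows in all. A Y core stood in 5 of the 9 windows, against 15.1% of 35116 windows of all genes. The X core stood in all 9, but these letters are so loose that 88.3% of all windows held them. The X2 letters stood in 5 of the 9, against 24.6% of all. An X core followed by a Y core on the same strand, with 25 to 45 bases from start to start, stood in 3 windows, those of HLA-DMA, HLA-DRB1 and HLA-DQB1, against 1.48% of all. The spacing was 32 bases in HLA-DMA and 31 in both HLA-DRB1 and HLA-DQB1. A match describes letters and is not a measured site, and the windows of HLA-DRB1 and HLA-DQB1 held them without a peak of either mark over them.

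The genes differed in whether they had a peak at all. Peaks of each mark lay within 5 kb of 6 of the 10 genes, CIITA, CD74, HLA-DMA, HLA-DMB, HLA-DQA1 and HLA-DQB1. Over all 19970 coding genes, 69.5% had an H3K4me3 peak within that distance and 65.5% an H3K27ac peak, so 6 of 10 is near the share of all genes. HLA-DRA, HLA-DRB1, HLA-DPA1 and HLA-DPB1, the chains of the HLA-DR and HLA-DP molecules, had none.

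HLA-DRA (chr6:32439887-32445046) lay 159207 bp from the nearest H3K4me3 peak and 176695 bp from the nearest H3K27ac peak. HLA-DRB1 (chr6:32578775-32589848) lay 14405 bp and 31893 bp from them. The 2 genes shared a stretch without peaks of 347552 bp for H3K4me3 and 365846 bp for H3K27ac. The HLA-DP genes (chr6:33064569-33089696) lay in a stretch without peaks of 133353 bp for H3K4me3 and 176896 bp for H3K27ac. HLA-DPA1 lay 36488 bp from the nearest H3K4me3 peak, and HLA-DPB1 47909 bp. The tables hold reads in peaks only, so the level of either mark over these 4 genes is not known, and the absence of a peak does not show the absence of the mark. Whether reads could be mapped over these stretches in these cells was not tested.

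At HLA-DQ the peaks were small and away from the gene starts. HLA-DQB1 (chr6:32659467-32666657, minus strand) had 1 H3K4me3 peak of 240 bp (chr6:32659747-32659986), at the end opposite to its start, and the peak also overlapped the antisense gene HLA-DQB1-AS1. Its counts were 0 and 7 reads in the DMSO libraries, 12 and 6 at 150 nM and 5 and 6 at 500 nM, too few for the test. HLA-DQA1 (chr6:32637406-32655272, plus strand) has this peak 4475 bp beyond its end, and its start lay 22.3 kb away.

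In H3K27ac 2 peaks lay at the same place, of 214 bp and 1129 bp. The larger (chr6:32659689-32660817) covered the H3K4me3 peak and stood at 12.2 and 10.2 CPM in the DMSO libraries, 11.05 and 8.29 in the 150 nM libraries and 11.3 and 10.2 in the 500 nM libraries. The 3 groups overlapped, and the log2 fold change for 500 nM against DMSO came to -0.055 (SE 0.23, edgeR adjusted p = 0.959). The smaller stood at 1.60 to 2.45 CPM over the 6 libraries.

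The map of the region sets these genes among their neighbours. Of 13 other genes of the region, 6 had no H3K4me3 peak within 5 kb and 7 no H3K27ac peak. Between HLA-DRA and HLA-DPB1, with 20 kb on either side, lay 16 H3K4me3 peaks and 29 H3K27ac peaks, of which 4 and 6 belonged to the listed genes. BRD2, a bromodomain gene just beyond HLA-DMA, had a mean of 410 ± 0.772 CPM of H3K4me3 (SD, n = 2) in DMSO, or 48.7 CPM per kb. TAP1, the peptide transporter of the class I pathway, had a peak of 190 ± 4.19 CPM (SD, n = 2), or 56.7 CPM per kb.

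**Figure D1:**
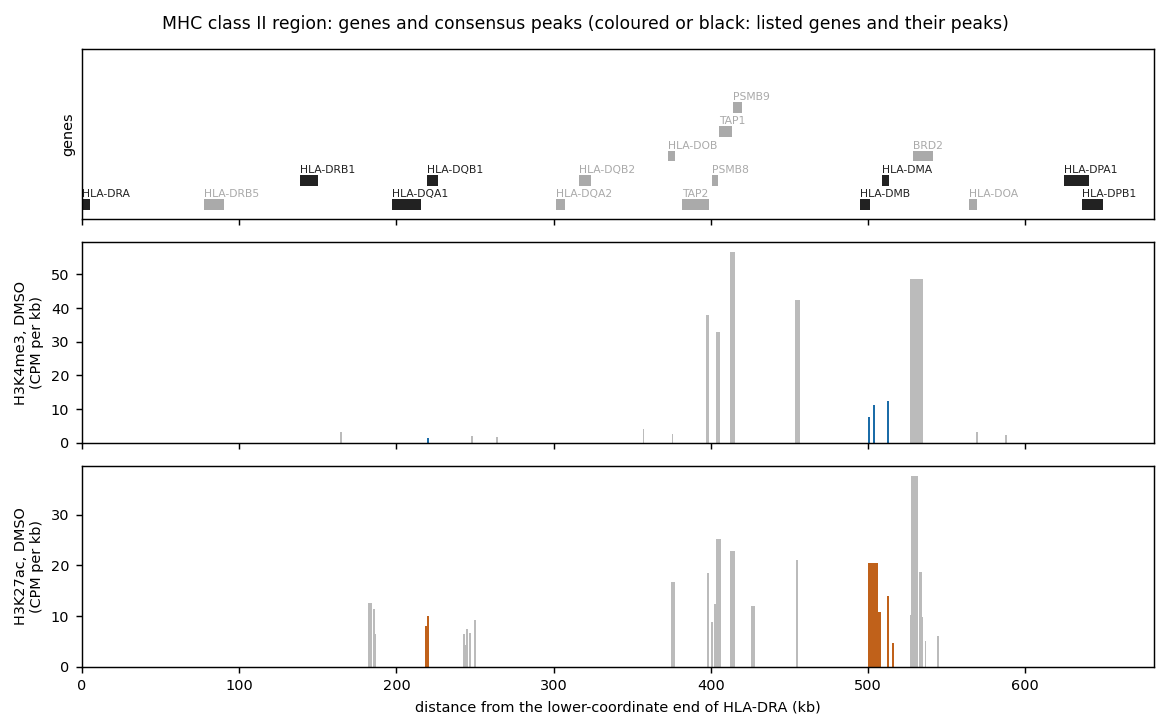
Genes of the MHC class II region (top) and DMSO level of each consensus peak in CPM per kb of peak (means of 2 libraries; middle H3K4me3, bottom H3K27ac) by distance in kb from the lower-coordinate end of HLA-DRA. Listed genes are black and their peaks coloured; HLA-DRA, HLA-DRB1, HLA-DPA1 and HLA-DPB1 have no peak, and the HLA-DM peaks stand between the taller peaks of the TAP genes and BRD2.

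Among the peaks that were present, levels per kb of peak in DMSO ordered the genes. In H3K4me3 the leading CIITA peak stood at 44.1 ± 2.69 CPM per kb (SD, n = 2), CD74 at 31.1 ± 0.569, HLA-DMA at 12.5 ± 2.07, the peak between HLA-DMB and HLA-DMA at 11.2 ± 0.469 and HLA-DMB at 7.72 ± 0.954. CIITA, CD74 and the HLA-DM peaks were set apart by more than the spread between libraries, while HLA-DMA and the peak between the HLA-DM genes were not. Of all tested H3K4me3 peaks, 89.4% were lower per kb than that of CIITA, 68.9% lower than that of CD74 and 44.2% lower than that of HLA-DMA.

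In H3K27ac the order was tighter at the top. The broad CIITA peaks stood at 22.6 ± 0.207 and 21.8 ± 0.699 CPM per kb, CD74 at 21.4 ± 0.832, the peak from HLA-DMB towards HLA-DMA at 20.4 ± 0.395, the HLA-DMA start at 14.0 ± 0.322 and HLA-DQB1 at 9.93 ± 1.22 (SD, n = 2). CD74 and the broader CIITA peak did not differ beyond their spread. The peak from HLA-DMB towards HLA-DMA ranked above 91.6% of tested peaks per kb in H3K27ac, and the 2 H3K4me3 peaks inside it above 35.7% and 42.4%. At the HLA-DMA start the peaks ranked above 74.3% in H3K27ac and 44.2% in H3K4me3. Each rank is within the tested peaks of its own mark. These peak sets differ in number and read depth, so the ranks do not compare the amounts of the marks.

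H3K4me3 fell at 500 nM JIB-04 at the HLA-DMA start, between HLA-DMB and HLA-DMA and at 2 of the 5 peaks of CIITA, and no listed gene gained it past the test. Of the 9 tested H3K4me3 peaks, 4 fell against DMSO and none rose, where 39.4% of all 20402 tested peaks passed in either direction, 20.7% higher and 18.7% lower. With libraries scaled by their total counts in peaks in place of TMM, the split over all peaks moved from 4215 higher and 3819 lower to 4767 and 2791. The median log2 fold change was -0.11 over the 9 peaks and -0.0063 over all tested peaks. At 7 of the 9 peaks both 500 nM libraries lay below both DMSO libraries, where 34.3% of all tested peaks did so, and at 1 they lay above, where 33.7% did. At the B cell markers 6 of 10 tested H3K4me3 peaks fell and none rose (median log2 fold change -0.16), and at the germinal centre markers 4 of 11 fell and 1 rose (median -0.25). With DESeq2 3 of the 10 and 4 of the 11 were called, where 3479 of all 20402 tested peaks were. The part of these marker peaks in the result was not tested.

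HLA-DMA (chr6:32948618-32953097, minus strand) had a peak of 1313 bp over its start (chr6:32952079-32953391), which includes the promoter sequence printed above. It stood at 18.3 and 14.4 CPM in the DMSO libraries, 17.6 and 17.9 in the 150 nM libraries and 12.8 and 9.09 in the 500 nM libraries. The 500 nM libraries lay below the other 4. The peak fell by 0.58 on the log2 scale against DMSO (SE 0.13, edgeR adjusted p = 2.75e-04), and by 0.68 against 150 nM (adjusted p = 2.05e-05). The call held in all 15 alternatives run, but without 500 nM replicate 2 the fall against DMSO was 0.38.

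Between HLA-DMB and HLA-DMA lay a peak of 1468 bp that overlapped no gene (chr6:32943111-32944578), 2083 bp from HLA-DMB and 4040 bp from HLA-DMA. It stood at 17.0 and 16.01 CPM in the DMSO libraries, 15.2 and 14.5 in the 150 nM libraries and 10.6 and 10.5 in the 500 nM libraries. The 500 nM libraries were the lowest, and the 150 nM libraries lay between them and DMSO. It fell by 0.64 against DMSO (SE 0.12, edgeR adjusted p = 1.82e-05) and by 0.49 against 150 nM (adjusted p = 0.00121). The call against DMSO held in all 15 alternatives, and that against 150 nM was lost in 1, with DESeq2 (adjusted p = 0.060).

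The start of HLA-DMB (chr6:32934636-32941028, minus strand) differed less clearly. Its peak of 1255 bp (chr6:32940178-32941432), which includes the HLA-DMB sequence above, stood at 10.5 and 8.84 CPM in the DMSO libraries, 10.8 and 11.4 in the 150 nM libraries and 8.42 and 8.68 in the 500 nM libraries. The 500 nM libraries were again below the other 4, but the log2 fold change against DMSO was -0.19 (SE 0.15, edgeR adjusted p = 0.322). Against 150 nM it fell by 0.38 (adjusted p = 0.0356), a call that was lost in 8 of 15 alternatives. The intervals of HLA-DMB, from -0.49 to 0.11, and HLA-DMA, from -0.84 to -0.32, overlap, and the difference between the 2 starts was not tested.

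CD74 (chr5:150401639-150412910, minus strand) had a single H3K4me3 peak of 3643 bp over its start (chr5:150409611-150413253). It stood at 115 and 112 CPM in the DMSO libraries, 109 and 113 in the 150 nM libraries and 110 and 101 in the 500 nM libraries. Both 500 nM libraries lay below both DMSO libraries, by a margin close to the spread within groups. The log2 fold change was -0.097 (SE 0.042, edgeR adjusted p = 0.0595), with a 95% interval of -0.18 to -0.013. Without 500 nM replicate 1 it was -0.17 and passed the test (adjusted p = 0.0083), and without replicate 2 it was -0.043.

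CIITA (chr16:10866206-10943021) had 5 H3K4me3 peaks, and they did not move alike. The leading peak of 4075 bp (chr16:10876629-10880703) began 10423 bp in from the gene's lower-coordinate end and stood at 187 and 172 CPM in the DMSO libraries, 178 and 182 in the 150 nM libraries and 166 and 168 in the 500 nM libraries. The 500 nM libraries were the lowest, by a small margin. It fell by 0.11 against DMSO (SE 0.036, edgeR adjusted p = 0.00918), or fell by 7.47%. That call was lost with DESeq2 (-0.11), with libraries scaled by total count (-0.078), with a correction for peak abundance (-0.040), without 500 nM replicate 1 (-0.10) and without DMSO replicate 1 (-0.047). Without DMSO replicate 2 the fall was 0.17.

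The next peak inward had a larger fall. It covered 2567 bp (chr16:10886273-10888839), 20067 bp from the lower-coordinate end, and stood at 40.5 and 32.9 CPM in the DMSO libraries, 40.5 and 37.7 in the 150 nM libraries and 28.3 and 22.0 in the 500 nM libraries. Both 500 nM libraries lay below the other 4. It fell by 0.54 against DMSO (SE 0.086, edgeR adjusted p = 5.83e-07) and by 0.62 against 150 nM (adjusted p = 2.06e-08), and both calls held in all 15 alternatives. Its 95% interval against DMSO, from -0.72 to -0.37, lay outside that of the leading peak, from -0.18 to -0.041. The difference between the 2 peaks itself was not tested.

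The other 3 peaks of CIITA did not pass against DMSO. A peak over the upper-coordinate end (chr16:10940709-10943078), which also covers the end of DEXI, stood at 51.9 and 50.6 CPM in the DMSO libraries, 56.2 and 52.8 in the 150 nM libraries and 52.2 and 45.04 in the 500 nM libraries. The groups overlapped against DMSO (log2 fold change -0.069, SE 0.061, edgeR adjusted p = 0.392). The fall of 0.16 against 150 nM (edgeR adjusted p = 0.0365) was lost in 6 of 15 alternatives, and without 500 nM replicate 2 it was 0.064. A peak 1025 bp beyond CIITA, over an end of CLEC16A, had a log2 fold change of -0.066 (adjusted p = 0.349). The small peak of 279 bp near the lower-coordinate end (chr16:10868785-10869063) was the only one of the 9 whose 500 nM libraries lay above both DMSO libraries. It stood at 0.817 and 0.786 CPM in the DMSO libraries, 0.537 and 0.651 in the 150 nM libraries and 1.19 and 1.23 in the 500 nM libraries (log2 fold change 0.58, SE 0.45, adjusted p = 0.312).

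**Figure D2:**
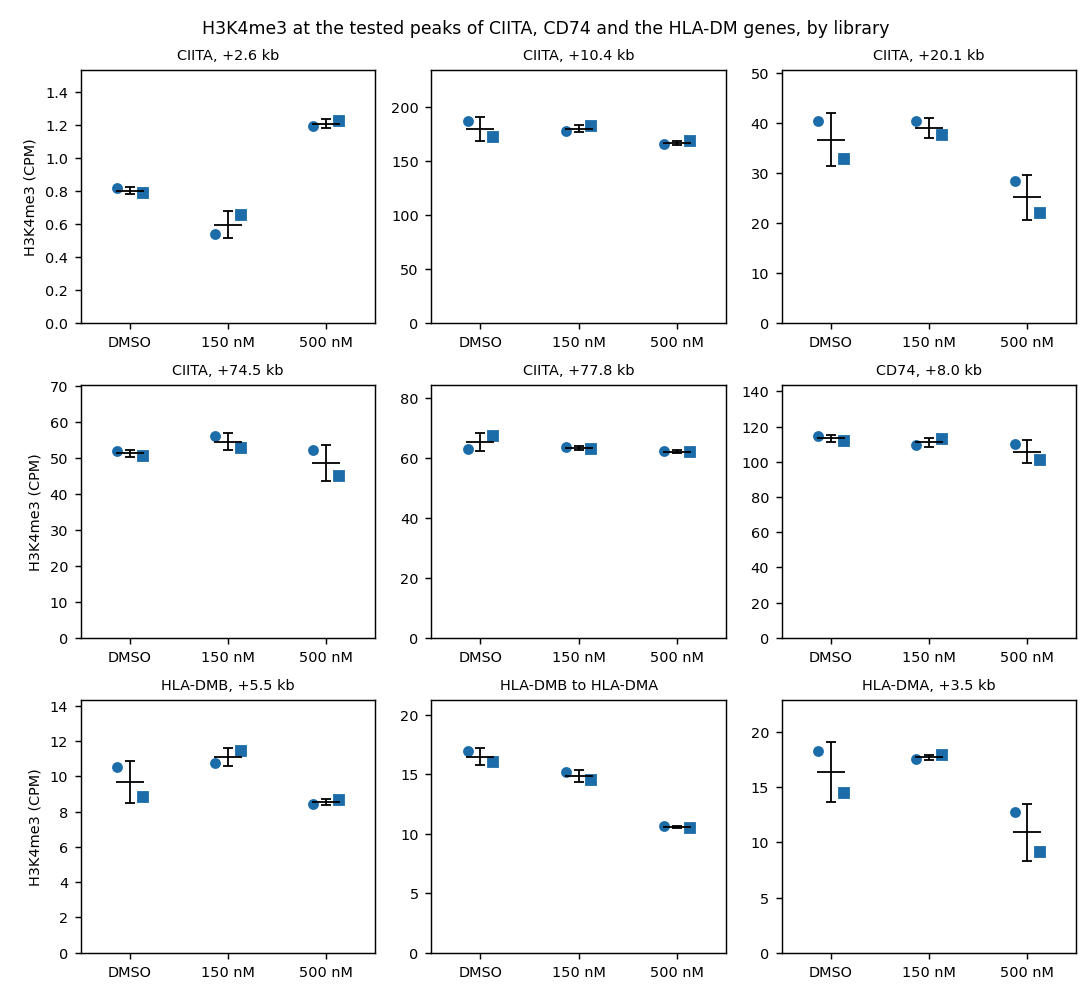
H3K4me3 in CPM at each tested peak of the listed genes, by treatment; circles are replicate 1, squares replicate 2, and the horizontal mark and error bar are the mean and SD of 2 libraries. Titles give the peak's start relative to the gene's lower-coordinate end; the 500 nM libraries lie lowest at HLA-DMA, between HLA-DMB and HLA-DMA and at CIITA +20.1 kb.

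The lower dose did not move these peaks past the test. At 150 nM against DMSO, edgeR called 0 of the 9 member peaks and 0% of all 20402 peaks, DESeq2 called none either, and 0 of the 9 had an unadjusted p under 0.05, where 950 of all peaks (4.66%) did. The median log2 fold change of the 9 peaks was -0.0039. At 500 nM against 150 nM, 6 of the 9 fell and none rose, where 39.2% of all peaks passed and 18.6% fell. The 2 further calls were the HLA-DMB start and the upper-coordinate end of CIITA. The leading CIITA peak fell by 0.11 against 150 nM (edgeR adjusted p = 0.0128), a call lost in 6 of 15 alternatives. The comparisons with 150 nM and with DMSO share the 500 nM libraries.

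H3K27ac at the listed genes gave no calls in the main test. Of the 26 tested peaks edgeR called 0 at 500 nM against DMSO, where 0.923% of all 54037 peaks passed, and DESeq2 called none. At 7 of the 26 both 500 nM libraries lay below both DMSO libraries, and at 8 above, where 22.2% and 22.4% of all peaks did so. An unadjusted p under 0.05 was found at 5 of the 26, 3 lower and 2 higher, and in 11.5% of all peaks. Against 150 nM, 0 of 26 passed, where 1.27% of all peaks did, and 4 had an unadjusted p under 0.05, where 10.2% of all did. At 150 nM against DMSO, 0 of 26 passed, where 0.00185% of all peaks did, and 0 had an unadjusted p under 0.05, where 3.94% of all did. The lowest adjusted p of the 26 was 0.137. In simulated H3K27ac data a log2 change of 1 was recovered at 46% of 200 peaks, against 80.5% for H3K4me3 in the same comparison. These shares are for randomly drawn peaks and a change larger than at the leading peaks below, so they do not give the recovery there.

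The broadest H3K27ac peak of the listed genes lay in CIITA. This leading peak, of 8995 bp (chr16:10883727-10892721), was longer than 99.4% of tested peaks and contains the inner H3K4me3 peak that fell. It stood at 191 and 200 CPM in the DMSO libraries, 185 and 182 in the 150 nM libraries and 166 and 159 in the 500 nM libraries. The 3 groups did not overlap and were lower at each dose, but how many of all peaks were ordered in this way was not counted. At 150 nM against DMSO the log2 fold change was -0.093 (SE 0.086, edgeR unadjusted p = 0.287). For 500 nM against DMSO the log2 fold change came to -0.27 (SE 0.087, edgeR adjusted p = 0.137). The adjusted p was 0.0014 with the 4 libraries of the comparison alone, 0.0019 and 0.0024 without 150 nM replicates 1 and 2 in turn, and 0.041 with a term for reads on unplaced contigs. In 11 of the 16 alternatives the peak was not called, with adjusted p up to 0.765.

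The second broad peak of CIITA (chr16:10877179-10882128) overlaps the leading H3K4me3 peak. It stood at 111 and 113 CPM in the DMSO libraries, 108 and 113 in the 150 nM libraries and 98.7 and 100.1 in the 500 nM libraries (log2 fold change -0.17, SE 0.098, edgeR adjusted p = 0.520). CIITA had 16 peaks, 23656 bp in all, of which 3 also lie in or within 5 kb of a neighbouring gene. Summed over the 16, CIITA had 413 and 413 CPM in the DMSO libraries, 407 and 408 in the 150 nM libraries and 378 and 380 in the 500 nM libraries. The sum was lowest at 500 nM, but not every peak went that way. Peaks that begin 29.0 kb and 78.3 kb from the lower-coordinate end, the latter over an end of CLEC16A, had log2 fold changes of 0.79 and 0.53 and unadjusted p of 0.0302 and 0.0308, with both 500 nM libraries above both DMSO libraries (edgeR adjusted p = 0.368 and 0.370).

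**Figure D3:**
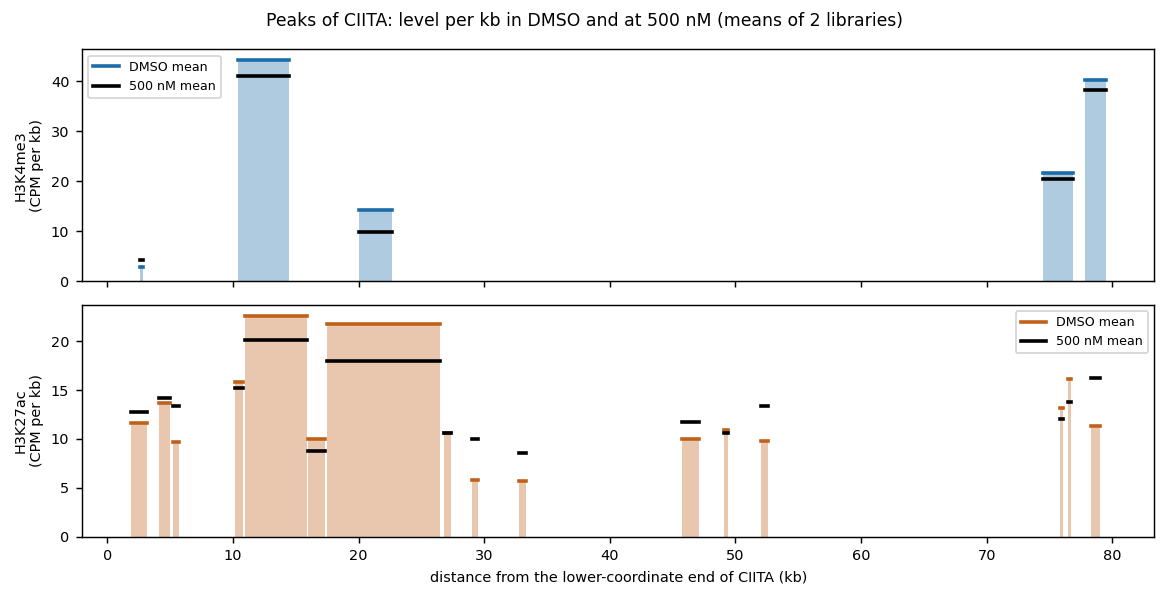
Peaks of CIITA by distance in kb from the lower-coordinate end of the gene, with the level in CPM per kb of peak as the mean of 2 libraries; coloured lines are DMSO, black lines 500 nM. In H3K4me3 the leading peak begins at 10.4 kb and the peak at 20.1 kb drops by more in proportion; in H3K27ac the 2 broad peaks are lower at 500 nM, and several small peaks further along are higher, none past the test.

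At CD74 the leading H3K27ac peak of 5967 bp (chr5:150408225-150414191) covered the start and stood at 124 and 131 CPM in the DMSO libraries, 124 and 127 in the 150 nM libraries and 106 and 110 in the 500 nM libraries. Both 500 nM libraries lay below the other 4. The log2 fold change was -0.24 (SE 0.096, edgeR adjusted p = 0.283). The adjusted p was 0.025 with the 4 libraries of the comparison alone, and 0.038 and 0.041 without 150 nM replicates 1 and 2 in turn. In the other 13 of 16 alternatives the peak was not called, with adjusted p up to 0.911.

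The HLA-DM genes had 4 H3K27ac peaks. The leading peak, of 6348 bp (chr6:32940083-32946430), spans the start of HLA-DMB and the H3K4me3 peak between both genes, and stood at 128 and 131 CPM in the DMSO libraries, 140 and 127 in the 150 nM libraries and 123 and 122 in the 500 nM libraries. Here too the 500 nM libraries were the lowest, and the log2 fold change was -0.082 (SE 0.095, edgeR adjusted p = 0.798), with a 95% interval of -0.27 to 0.11. The H3K4me3 peak between the genes covers only 1468 bp of this stretch and had a 95% interval of -0.89 to -0.40. The H3K4me3 peak at the HLA-DMB start, also inside the stretch, had one of -0.49 to 0.11. The 2 marks were fitted apart, and their difference was not tested. The peak over the HLA-DMA start (chr6:32952148-32953417) stood at 17.5 and 18.1 CPM in the DMSO libraries, 18.7 and 19.0 in the 150 nM libraries and 11.5 and 15.4 in the 500 nM libraries (log2 fold change -0.40, SE 0.19, adjusted p = 0.414).

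**Figure D4:**
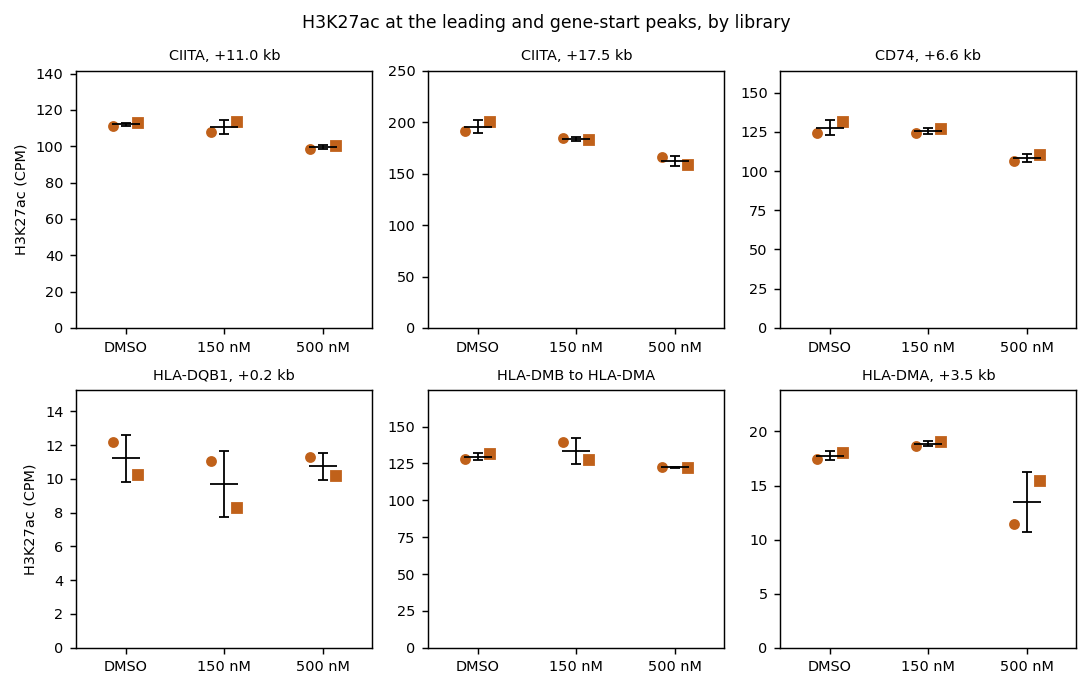
H3K27ac in CPM at the leading and gene-start peaks and the second broad CIITA peak, by treatment; circles are replicate 1, squares replicate 2, and the horizontal mark and error bar are the mean and SD of 2 libraries. The 500 nM libraries lie lowest at CIITA, CD74 and both HLA-DM peaks, none past the main test, and overlap the other groups at HLA-DQB1.

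**Figure D5:**
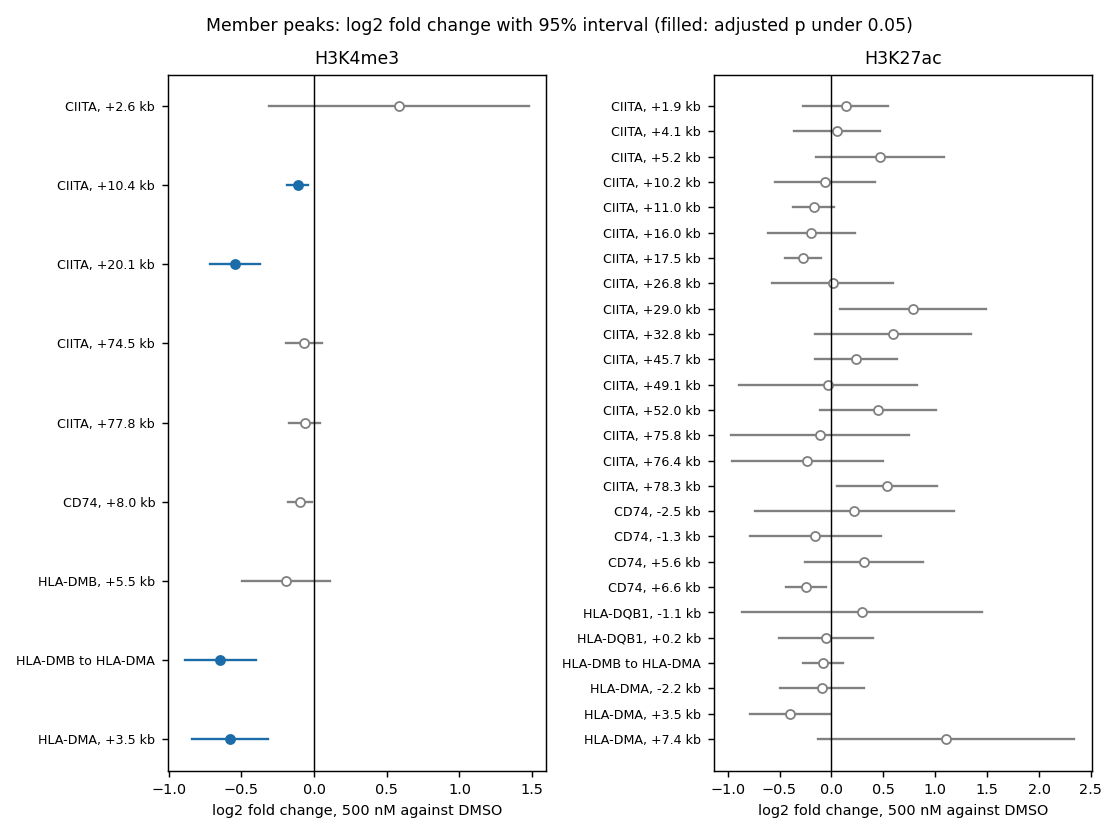
Log2 fold change at 500 nM against DMSO with its 95% interval for the 9 tested H3K4me3 peaks (left) and 26 tested H3K27ac peaks (right); filled points have an adjusted p under 0.05. The 4 calls are all H3K4me3 losses, and the H3K27ac intervals are wider, with a median log2 fold change of -0.0099.

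Together the listed peaks held 0.0470% to 0.0501% of H3K4me3 reads in the DMSO and 150 nM libraries and 0.0433% and 0.0461% in the 500 nM libraries. For H3K27ac the shares were 0.0714% to 0.0729% and 0.0652% and 0.0665%. In both marks the 500 nM libraries had the lowest shares. The H3K4me3 shares mostly reflect CIITA and CD74, whose peaks summed to means of 334 and 113 CPM in DMSO. HLA-DMA and HLA-DMB, which share a peak, had 32.9 and 26.2 CPM.

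The factors that bind the class II promoters or regulate CIITA were read from a list of 15 genes, all with H3K4me3 peaks. Of their 28 tested peaks 5 rose and 7 fell at 500 nM against DMSO, where 20.7% and 18.7% of all tested peaks did so. Their median log2 fold change was -0.052. With DESeq2 6 of the 28 were called in either direction, where 3479 of all 20402 tested H3K4me3 peaks were. RFX5, the RFX subunit that binds the X box, rose from 54.7 ± 2.26 to 64.1 ± 0.641 CPM (SD, n = 2; log2 fold change 0.22, edgeR adjusted p = 5.62e-04), while RFXAP and RFXANK, its partners, had values of -0.023 for RFXAP and of -0.059 and -0.10 for the 2 peaks of RFXANK. CREB1, which binds the X2 box, fell by 0.16 (adjusted p = 0.00144). Among the Y box factors NFYA and NFYB had -0.066 and -0.044, and NFYC fell by 0.19 at 1 of its 2 peaks.

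The regulators of CIITA also moved in both directions. SPI1, which encodes PU.1, fell from 108 ± 2.64 to 82.4 ± 3.13 CPM (SD, n = 2; log2 fold change -0.38, edgeR adjusted p = 1.00e-10). IRF4 rose by 0.15, and IRF1 by 0.14 at 1 of its 2 peaks. PRDM1, the repressor of CIITA in plasma cells, rose by 0.30 at 1 of its 3 peaks (adjusted p = 8.28e-04), with values of 0.11 and 0.14 at the others. IRF8 rose by 0.25 at its broadest peak. At nearby IRF8 peaks of 3806 bp and 1006 bp it fell by 1.28 and 0.94 (edgeR adjusted p = 4.99e-21 and 8.13e-04). PAX5 fell at 2 of its 4 peaks, by 0.13 at the one with the most reads and by 0.60 at another. In H3K27ac edgeR and DESeq2 called 0 of the 86 tested peaks of these genes, where edgeR called 0.923% of all tested peaks. An unadjusted p under 0.05 was found at 12 of them, where 11.5% of all peaks had one.

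Of the 13 other genes of the class II region, 7 had an H3K4me3 peak, and HLA-DRB5, HLA-DRB6, HLA-DQA2, HLA-DQB2, HLA-DPB2 and BTNL2 had none. Of their 5 tested peaks BRD2 alone passed, with a rise of 0.082 (edgeR adjusted p = 0.0110), where 39.4% of all tested peaks passed in either direction. With DESeq2 0 of the 5 were called, where 3479 of all 20402 tested H3K4me3 peaks were. TAP1 and TAP2 had values of -0.040 to 0.0008. HLA-DOB, a subunit of the inhibitor of HLA-DM, had a small H3K4me3 peak of 0.793 ± 0.149 CPM in DMSO but an H3K27ac peak of 40.6 ± 4.37 CPM (SD, n = 2), which it shares with TAP2.

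Of the 16 tested H3K4me3 peaks at 10 genes of loading, turnover and costimulation, 3 fell and 1 rose, where 18.7% and 20.7% of all tested peaks did so. With DESeq2 2 of the 16 were called in either direction, where 3479 of all 20402 tested H3K4me3 peaks were. CTSS, the protease that trims the invariant chain, fell by 0.33 (edgeR adjusted p = 0.00122). CD40, the receptor for T cell help, fell from 57.1 ± 2.84 to 39.2 ± 1.83 CPM (SD, n = 2; log2 fold change -0.54, adjusted p = 5.84e-11). MARCHF1, the ligase that sends class II molecules for degradation, fell by 1.12 at 1 of its 2 peaks, of 4.92 CPM in DMSO. CD80, a costimulatory ligand, rose by 1.49 at 1 of its 2 tested peaks, of 0.499 CPM in DMSO. CD80 also had the 1 call of 48 in H3K27ac, where 0.923% of all tested peaks passed, a rise of 0.68 (edgeR adjusted p = 0.0491). With DESeq2 0 of the 48 were called, where 114 of all 54037 tested H3K27ac peaks were.

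Beside CIITA, the peaks of its neighbours were counted without the 2 H3K4me3 and 3 H3K27ac peaks that they share with CIITA. Of the 7 tested H3K4me3 peaks left, 2 fell, where 18.7% of all tested peaks fell. Both lay in CLEC16A and fell by 0.44 and 0.80 (edgeR adjusted p = 0.00666 and 2.40e-10). A CLEC16A peak of H3K27ac rose by 1.09, the 1 call among 38 tested, where 0.923% of all tested peaks passed. Of 13021 H3K4me3 peaks near a gene end, those most like the leading CIITA peak over the 6 libraries lay at LINC00598 (Pearson r = 0.996), TMEM255B with GAS6-AS1 (0.995) and IPO8 (0.991). These correlations describe log2 CPM in the same 6 libraries, whose depths and treatments they share, and 42 peaks had r above 0.95.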

How the data were processed

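The 12 H3K4me3 and H3K27ac libraries of 30 samples were analysed, grouped by the sample titles. The 18 libraries of H3K9me2, H3K9me3 and input were not analysed here. The deposited tables give raw counts per consensus peak, 1 peak set per mark and 1 column per library. Per the file headers, the authors counted with featureCounts 2.0.1, requiring a fraction of 0.2 of a read in the peak. The headers record a paired-read setting, but the labels' protocols describe single-end sequencing of 50 bp, so whether reads or fragments were counted is unclear. The submitters' processing notes name GRCh38, Trim Galore 0.6.7, BWA 0.7.17-r1188, Picard 2.27.4, MACS2 2.2.7.1, deepTools 3.5.1 and edgeR 3.42.4, without roles. How the peaks of the libraries were merged is not given in the sources used here. Starts are deposited starts plus 1.

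Counts were tested with edgeR 4.0.16 (filterByExpr, TMM, glmQLFit and glmQLFTest) on all 6 libraries of a mark, with Benjamini-Hochberg adjustment at 0.05 over all tested peaks. 20402 H3K4me3 and 54037 H3K27ac peaks passed the filter, with 9 of 10 and 26 of 26 member peaks. The 150 nM libraries of H3K4me3 differed by less than sampling noise (chi-square per degree of freedom 0.919), but so did libraries of different groups (0.947 for replicate 1 of DMSO and of 150 nM), and they were kept as 2. In H3K27ac the same value between replicates was 1.27 in DMSO, 2.36 at 150 nM and 1.21 at 500 nM. All 6 libraries entered each main test, and the effect of the 150 nM spread on the calls was not tested. Standard errors were derived from the F statistic, and intervals are 95%. On simulated counts with 200 peaks changed by 1 on the log2 scale, for 500 nM against DMSO, the fit recovered 80.5% among 20402 H3K4me3 peaks and 46% among 54037 H3K27ac peaks, with 7 and 6 false calls. DESeq2 1.42.0, other scalings, filters, a replicate block and leaving out each library were the alternatives.

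Gene positions, strands and promoters come from RefSeq tables of GRCh38.p14, which hold no strand or promoter for HLA-DRA and CIITA. Exons, introns and untranslated regions were not annotated here. For each gene and mark the text names the peak of largest mean CPM, the peak nearest to the start, and every peak called, and gives the others in counts, ranges or as single values chosen after they were seen. The members and lists were chosen with earlier results of these data known.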

Additional observations from a re-analysis of the deposited data

How the results depend on the processing

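Member calls in H3K4me3 at 500 nM against DMSO numbered 3 to 5 when 1 library was left out and 4 in the main test. Against 150 nM they numbered 6, and 4 to 6 with 1 library left out, but 3 at an adjusted p under 0.01, 3 with total counts as scaling and 2 with DESeq2. In H3K27ac at 500 nM against DMSO there was no call in the main test, 2 with the 4 libraries of the comparison alone, 0 to 2 when 1 library was left out (2 without either 150 nM library) and 1 with a term for contig reads, in which DMSO replicate 2 and 150 nM replicate 2 stood at 72.8 and 46.4 CPM and the others at 327 to 447. Over all H3K4me3 peaks DESeq2 called 17.1% at 500 nM against DMSO and 17.0% against 150 nM, fewer than the 39.4% and 39.2% of the main test. Over all H3K27ac peaks the share called at 500 nM against DMSO ran from 0.196% without DMSO replicate 2 to 4.12% with 4 libraries. Over all 63580 H3K27ac peaks, tested or not, the median count was 21 to 24 reads. Over the tested ones the median SE at 500 nM against DMSO was 0.295, while the leading CIITA and CD74 peaks had SEs of 0.087 and 0.096.

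With the replicate number as a block, member calls at 500 nM against DMSO were 5 in H3K4me3, CD74 being added, and 1 in H3K27ac, the leading CIITA peak (adjusted p = 0.046), and calls over all H3K27ac peaks went from 499 to 1150. The numbers are not shown to pair the libraries: deviations of same-numbered libraries correlated at 0.0047 to 0.049 in H3K4me3 and 0.0026 to 0.13 in H3K27ac.

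Signs reversed only in values that did not pass the test. With 1 library left out, log2 fold changes in H3K4me3 ran from -0.19 to 0.022 at the upper-coordinate end of CIITA (500 nM against DMSO), and at 150 nM against DMSO from -0.060 to 0.064 at the leading CIITA peak (0.000297 with DESeq2), from -0.050 to 0.25 at the inner CIITA peak and from -0.047 to 0.29 at HLA-DMA. In H3K27ac the larger HLA-DQB1 peak ran from -0.18 to 0.064 at 500 nM against DMSO and from -0.039 to 0.37 against 150 nM (-0.0011 with the contig term). The smaller one against 150 nM ran from -0.25 to 0.22, with -0.0033 for total counts, -0.023 for the abundance correction, -0.0031 for no filter and -0.0024 for 4 libraries. At 150 nM against DMSO, CD74 ran from -0.060 to 0.029 and the HLA-DMB to HLA-DMA peak from -0.016 to 0.11. The cause was not tested.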
